A study of Citrus maxima and Citrus sinensis with 8 samples.

Results

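Cs7g05750 is 1 of the 30151 genes listed for citrus root tips and carries the description glucuronidase 3 isoform 1, taken from a similar protein of *Theobroma cacao*. It was chosen by its FPKM under aluminum (Al) and in control roots of these same libraries, where it was among the largest increases, so its +Al and control values are given below as a description, with no test. Only 2 other genes have glucuronidase or heparanase in their description, Cs4g05160 and Cs7g03130, and they are set beside it. Seedlings of Al-intolerant *C. grandis* (‘Shatian pummelo’) and Al-tolerant *C. sinensis* (‘Xuegan’) received nutrient solution with 1 mM AlCl3 (+Al) or 0 mM AlCl3 (control) for 18 weeks in sand culture. Of each of the 4 groups, *C. grandis* +Al, *C. grandis* control, *C. sinensis* +Al and *C. sinensis* control, 2 RNA-seq libraries were made, each from the pooled root tips of 5 seedlings, so their spread is that between pools and not between plants. All values are FPKM, which are fragment numbers scaled by transcript length and by the mapped reads of the library, that the authors computed after mapping the reads of both species to the *C. sinensis* genome, so that *C. grandis* reads that do not match this genome are lost.

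Plant beta-glucuronidases of the heparanase-like family remove glucuronic acid from the ends of sugar side chains. In *Arabidopsis* their known substrates are arabinogalactan proteins, heavily glycosylated proteins of the cell wall and plasma membrane, whose glucuronic acid binds calcium. Glucuronic acid itself comes from UDP-glucose through UDP-glucose 6-dehydrogenase or from inositol through inositol oxygenase, and is passed on as UDP-glucuronate to wall polysaccharides. The deposited annotation placed Cs7g05750 in the pathway of glycosaminoglycan degradation with hydrolase activity and gave it no cellular component, whereas it placed Cs4g05160 in the cell wall. The name of Cs7g05750 therefore rests on similarity alone.

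The libraries summed to between 713378 and 859570 FPKM, with the lowest sum in *C. grandis* +Al replicate 1. In *C. grandis* +Al roots, replicate 1 lay below replicate 2 by a median log2 difference of -0.39 over the expressed genes, whereas in the other groups the replicates differed by medians between -0.02 and 0.14. The files hold FPKM without the read counts behind them, and counting error could therefore not be given. Markers of root tissue were present in every library. Genes of photosynthesis, 33 by description, summed to between 127 and 263 FPKM. Of these 23 reached 1 FPKM in some library and 4 were listed at 0 in every library. Of 22 genes described by words for pollen or seed storage, 15 reached 1 FPKM, and 5 of the 22 are lipid transfer proteins. They summed to 875 and 901 FPKM in *C. grandis* +Al and 1807 and 2025 FPKM in *C. grandis* control roots. *C. sinensis* sums were 2130 and 2238 FPKM in +Al and 1815 and 1839 FPKM in control roots. These keyword lists therefore did not show other tissue to be absent.

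Cs7g05750 was all but absent from control roots of both species and among the better expressed genes of +Al roots. In *C. grandis* it had 64.1 and 102 FPKM in +Al replicates 1 and 2, against 0.615 and 0.292 FPKM in control replicates 1 and 2. In *C. sinensis* it had 45.7 and 39.9 FPKM in +Al replicates 1 and 2, against 0.957 and 0.793 FPKM in control replicates 1 and 2. The groups did not overlap in either species, and the lower +Al library stood 104 times above the higher control library in *C. grandis* and 41.7 times in *C. sinensis*.

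**Figure D1:**
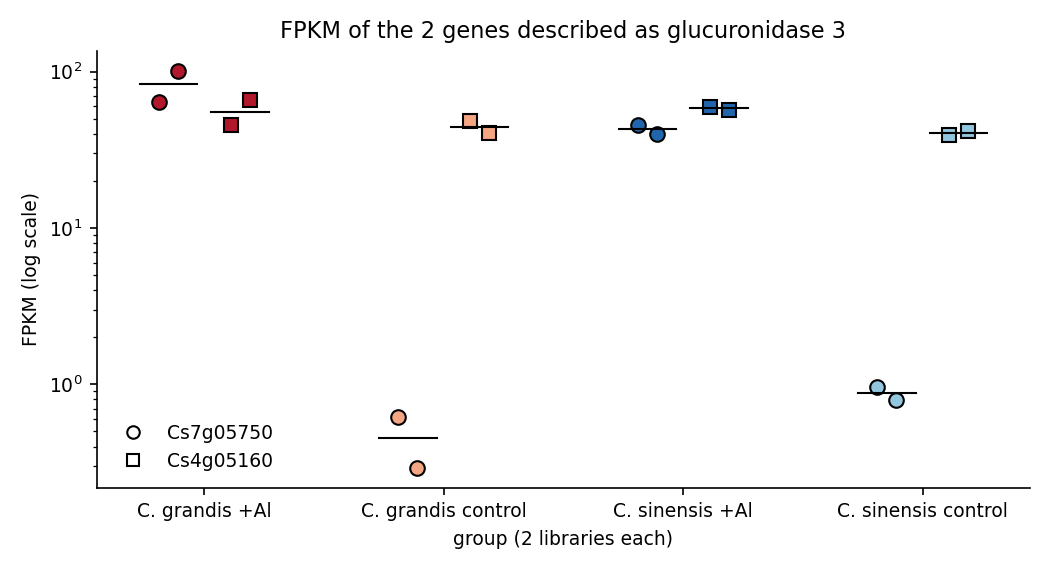
FPKM on a log axis of Cs7g05750 (circles) and Cs4g05160 (squares) in the 2 libraries of each group, with a line at the group mean. Cs7g05750 lies below 1 FPKM in all 4 control libraries and between 39.9 and 102 FPKM in the +Al libraries, whereas Cs4g05160 lies between 39.4 and 65.4 FPKM in all 8.

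The group means were 82.8 ± 26.5 FPKM in *C. grandis* +Al and 0.453 ± 0.229 FPKM in *C. grandis* control roots, and 42.8 ± 4.12 FPKM in *C. sinensis* +Al and 0.875 ± 0.116 FPKM in *C. sinensis* control roots (SD, n = 2 each). These means gave ratios of 183 in *C. grandis* and 48.9 in *C. sinensis*. On the scale of log2(FPKM + 0.1), used for every fold change below, the difference was 7.25 in *C. grandis* and 5.46 in *C. sinensis*. That scale understates changes from low values, and with 1 FPKM added in place of 0.1 the same differences were 5.82 and 4.54.

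From highest to lowest the order of the groups was *C. grandis* +Al, *C. sinensis* +Al, *C. sinensis* control and *C. grandis* control. No neighbours in this order overlapped, but the gaps within a treatment were small beside the change under Al. The lower *C. grandis* +Al library, 64.1 FPKM, stood above the higher *C. sinensis* +Al library, 45.7 FPKM. The higher *C. grandis* control library, 0.615 FPKM, stood below the lower *C. sinensis* control library, 0.793 FPKM. The log2 response of *C. grandis* exceeded that of *C. sinensis* by 1.79. With 1 library left out at a time the log2 response of Cs7g05750 ranged between 6.82 and 7.69 in *C. grandis* and between 5.34 and 5.58 in *C. sinensis*.

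Cs7g05750 had the 8th largest log2 fold change of the 18677 genes examined in *C. grandis* and the 12th of the 19152 examined in *C. sinensis*, that is, of genes averaging 1 FPKM or more in +Al or control roots. Ranked by the smaller of its responses in the 2 species, it was the 3rd of 17671 genes examined in both. It came after Cs6g12780, an aluminum-activated malate transporter, with log2 fold changes of 7.64 in *C. grandis* and 6.17 in *C. sinensis*, and XLOC_009088, an assembled locus described as methionyl-tRNA synthetase, which was listed at 0 in both *C. grandis* control libraries and at 9.17 and 13.8 FPKM in *C. grandis* +Al replicates 1 and 2. As a level, Cs7g05750 was exceeded by 8.83 and 6.51% of the genes listed above 0 in *C. grandis* +Al replicates 1 and 2, against 87.6 and 92.1% in control replicates 1 and 2. In *C. sinensis* 14.8 and 16.7% of listed genes exceeded it in +Al replicates 1 and 2, against 82.9 and 85.0% in control replicates 1 and 2.

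Cs4g05160, the other gene described as glucuronidase 3 isoform 1, was well expressed in every library and was not called under Al in either species. In *C. grandis* it had 45.6 and 65.4 FPKM in +Al replicates 1 and 2, against 48.5 and 40.5 FPKM in control replicates 1 and 2, and the groups overlapped. Its log2 fold change there was 0.30 with a standard error of 0.26 (limma, adjusted p = 0.52). In *C. sinensis* it had 59.1 and 57.2 FPKM in +Al replicates 1 and 2, against 39.4 and 41.7 FPKM in control replicates 1 and 2, and here the groups did not overlap. The log2 fold change was 0.52 with a standard error of 0.06 (limma, adjusted p = 0.0025). A gene was called when its adjusted p (Benjamini-Hochberg over all genes tested) did not exceed 0.05 and it changed by 1 or more on the log2 scale in either direction, so Cs4g05160 passed by p in *C. sinensis* but stayed below the fold limit. By this rule 12.5% of all genes tested were called in *C. grandis* and 8.53% in *C. sinensis*. Its responses differed between the species by -0.22, *C. grandis* minus *C. sinensis*, with a standard error of 0.26 (limma, adjusted p = 0.60), and without *C. grandis* +Al replicate 1 by 0.04. The *C. sinensis* change had an adjusted p of 0.11 from limma when all 8 libraries shared 1 estimate of the spread. Cs7g03130, described as heparanase-like protein 2-like and partial, was listed at 0 in all 8 libraries.

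Because FPKM are per length of transcript, the 2 expressed genes can be added within a library. Their sum was 109.7 and 167 FPKM in *C. grandis* +Al replicates 1 and 2, against 49.1 and 40.8 FPKM in control replicates 1 and 2. *C. sinensis* sums were 105 and 97.1 FPKM in +Al replicates 1 and 2, against 40.4 and 42.5 FPKM in control replicates 1 and 2. Cs7g05750 made up 59.6 ± 1.69% of this sum in *C. grandis* +Al and 0.984 ± 0.379% in *C. grandis* control roots, and 42.4 ± 1.78% in *C. sinensis* +Al and 2.12 ± 0.355% in *C. sinensis* control roots (SD, n = 2 each). The share does not depend on the scale of a library, and the *C. grandis* +Al replicates, which differed in level, had nearly equal shares of 58.4 and 60.8%. Genes of like sequence can share reads, which makes separate values uncertain. In control roots, where Cs4g05160 was at 39.4 FPKM or more, the value of Cs7g05750 was between 0.721 and 2.43% of it.

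**Figure D2:**
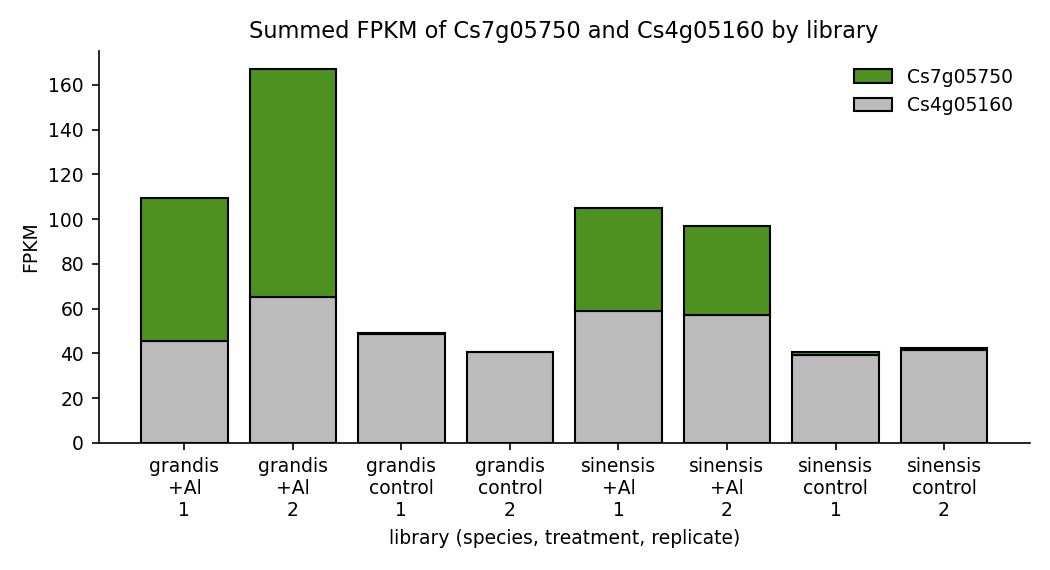
Stacked bars of the FPKM of Cs4g05160 (grey, below) and Cs7g05750 (green, above) in each of the 8 libraries. The grey part stays between 39.4 and 65.4 FPKM, and the green part is broad in the 4 +Al libraries, where the bars reach 97.1 to 167 FPKM, and no more than a line in the 4 control libraries.

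The genes that stand next to Cs7g05750 in the numbering of the Cs7g IDs did not share its pattern. Of the 5 IDs on each side, 6 could be tested, with log2 fold changes between -0.65 and 0.61. None was called in either species, where 12.5 and 8.53% of all genes were called in *C. grandis* and *C. sinensis*. At those shares 6 genes would give less than 1 call. Cs7g05740, a cysteinyl-tRNA synthetase, had 6.60 and 7.38 FPKM in *C. grandis* +Al replicates 1 and 2 against 8.03 and 6.37 FPKM in control replicates 1 and 2. *C. sinensis* roots had 7.53 and 6.59 FPKM in +Al replicates 1 and 2 against 6.57 and 7.38 FPKM in control replicates 1 and 2. On the other side Cs7g05760 and Cs7g05770, which have no description, were listed at 0 in all 8 libraries. Cs7g05780, a flotillin-like membrane protein, had log2 fold changes of 0.61 in *C. grandis* and 0.31 in *C. sinensis* (limma, adjusted p = 0.30 and 0.15). Of the same 6, 1 had a response that differed between the species by limma's test, which is near the 17.6% of all genes. This was Cs7g05800, a 40S ribosomal protein, with log2 fold changes of -0.42 in *C. grandis* and 0.32 in *C. sinensis*.

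**Figure D3:**
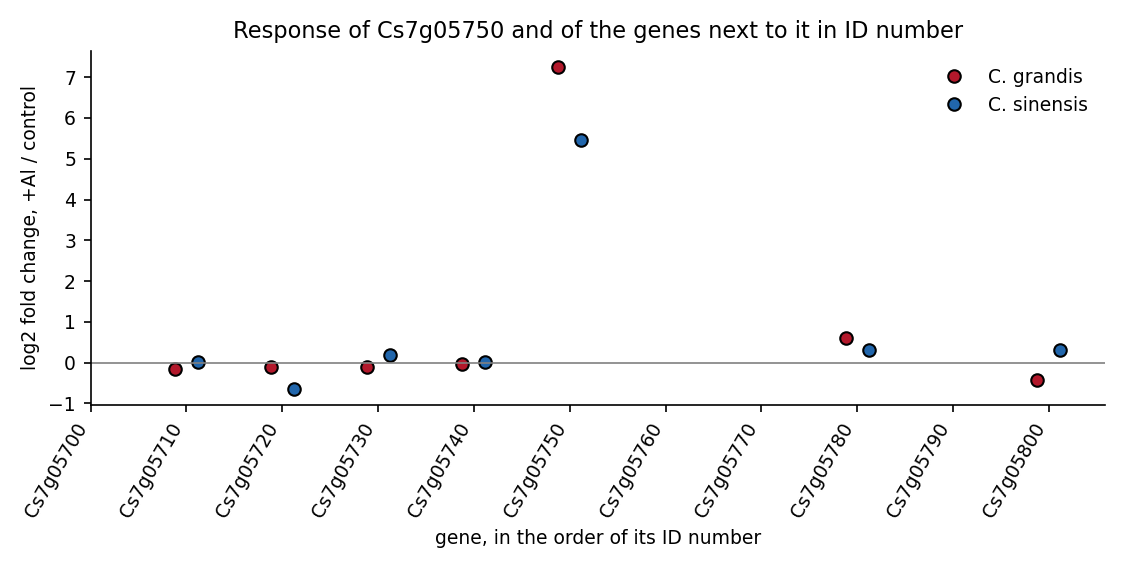
Log2 fold change, +Al over control, of Cs7g05750 and the 5 gene IDs on each side of it, in *C. grandis* (red) and *C. sinensis* (blue). Cs7g05750 stands at 7.25 and 5.46, the tested neighbours lie between -0.65 and 0.61, and 4 IDs without points were below the limit of 1 FPKM.

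A gene can be likened to Cs7g05750 by how closely its values follow it over the 8 libraries once each gene is centred on its own mean. The measure used was the root mean square difference on the log2(FPKM + 0.1) scale, over 15328 other genes averaging 5 FPKM or more in some group. The median gene lay 3.26 log2 units away. Nearest were XLOC_009088, described as methionyl-tRNA synthetase, at 0.40, and the malate transporter Cs6g12780 at 0.77. Cs6g12780 had 28.7 and 40.3 FPKM in *C. grandis* +Al replicates 1 and 2, against 0 and 0.191 FPKM in control replicates 1 and 2, and 21.7 and 19.1 FPKM in *C. sinensis* +Al replicates 1 and 2, against 0.0827 and 0.345 FPKM in control replicates 1 and 2. Some transporters of its family release malate, which binds Al, from root tips.

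The next nearest were orange1.1t03403, which has no description, at 1.06 and XLOC_021891, described as similar to SENSITIVE TO PROTON RHIZOTOXICITY 1, at 1.31. That name belongs in *Arabidopsis* to a zinc finger regulator needed for tolerance of acid and Al. Cs7g01770, described as ferric reductase defective 3b, followed at 1.37 with 650.1 and 956 FPKM in *C. grandis* +Al and 38.4 and 34.5 FPKM in *C. grandis* control replicates, and with 260.0 and 248 FPKM in *C. sinensis* +Al and 26.1 and 25.1 FPKM in *C. sinensis* control replicates. Proteins of that name carry citrate in *Arabidopsis*. A miraculin-like protein, Cs5g16770, and a disease resistance protein, XLOC_003018, both lay at 1.51, and iron regulated 1, Cs6g09440, a metal exporter in *Arabidopsis*, lay at 1.58. The 9th gene lay at 1.60, so the limit of 8 genes falls in no gap. These genes were found by their values in the same libraries, and no test is given.

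**Figure D4:**
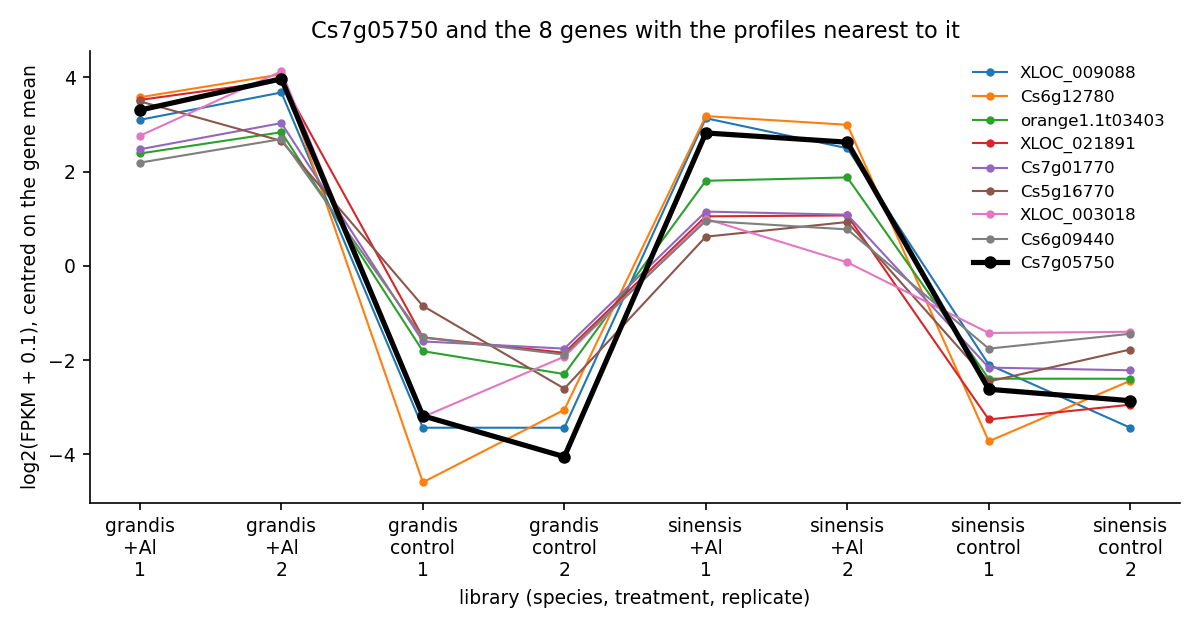
Values of log2(FPKM + 0.1), centred on each gene's mean, of Cs7g05750 (black) and the 8 genes with the nearest profiles over the 8 libraries. All 9 lines are high in the 4 +Al and low in the 4 control libraries, and in *C. sinensis* the log2 fold changes of XLOC_009088 and Cs6g12780, 5.58 and 6.17, stand beside 5.46 for Cs7g05750, whereas those of the other 6 lie between 1.95 and 4.24.

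The known substrates of plant glucuronidases, the arabinogalactan proteins, moved apart in the 2 species. Of 8 tested in *C. grandis* 3 fell and none rose, where 7.25% of all genes fell, and of 9 tested in *C. sinensis* 2 rose and none fell, where 4.46% of all genes rose. The median log2 fold change was -0.90 in *C. grandis* and 0.58 in *C. sinensis*, against medians over all tested genes of -0.01 and -0.002 in the same order. The response differed between the species for 8 of 9, all lower in *C. grandis*, where 17.6% of all 20158 genes tested for a difference were called, 11.3% lower and 6.27% higher, by limma on all 8 libraries at an adjusted p of at most 0.05. With 1 library left out at a time 7 or 8 of the 9 still differed. The falls in *C. grandis* were less secure, with no call without *C. grandis* control replicate 1 or 2, when the spread within the species rests on the +Al replicates alone, and 2 without +Al replicate 2. In *C. sinensis* 1 call was left without control replicate 2.

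Cs2g05930, an arabinogalactan protein, had 16.4 and 13.3 FPKM in *C. grandis* +Al replicates 1 and 2, against 32.3 and 29.3 FPKM in control replicates 1 and 2. In *C. sinensis* it had 140.2 and 129 FPKM in +Al replicates 1 and 2, against 52.0 and 55.1 FPKM in control replicates 1 and 2. The groups did not overlap in either species and lay in opposite order, with log2 fold changes of -1.05 (standard error 0.28, limma, adjusted p = 0.0073) in *C. grandis* and 1.33 (standard error 0.07, limma, adjusted p = 0.00023) in *C. sinensis*. Fasciclin-like arabinogalactan proteins carry domains thought to hold cells and walls together. One of them, Cs2g16140, had 187 and 190.2 FPKM in *C. sinensis* +Al replicates 1 and 2, against 95.5 and 85.3 FPKM in control replicates 1 and 2, and rose by 1.06 on the log2 scale (limma, adjusted p = 0.0004), a call lost without control replicate 2. In *C. grandis* its log2 fold change was -0.43 (limma, adjusted p = 0.30). Another, orange1.1t00255, had 23.5 and 21.8 FPKM in *C. grandis* +Al replicates 1 and 2, against 49.3 and 57.7 FPKM in control replicates 1 and 2, and fell by 1.24 on the log2 scale (limma, adjusted p = 0.00067). The same gene had a log2 fold change of 0.50 in *C. sinensis*, which passed by p but not by size. Cs8g18440 also fell in *C. grandis*, at -1.34 on the log2 scale (limma, adjusted p = 0.00075), and had -0.37 in *C. sinensis*, the single member below zero there.

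Whole root tips were sequenced, so fewer cells of a type and less RNA per cell cannot be told apart. The summed level of 3 genes described as xylem cysteine proteases lay between 24.1 and 24.3 FPKM in *C. grandis* +Al and between 65.5 and 67.2 FPKM in *C. grandis* control roots. *C. sinensis* values lay between 83.6 and 84.5 FPKM in +Al and between 67.2 and 69.1 FPKM in control roots, so that in each species the sum lay on the same side of control as the median arabinogalactan protein, and its part in their change was not tested. The sum of 3 genes described as scarecrow-like, of root tip patterning, lay between 48.6 and 72.7 FPKM in *C. grandis* +Al and between 85.5 and 89.3 FPKM in *C. grandis* control roots, and between 35.1 and 37.4 FPKM in *C. sinensis* +Al and between 49.6 and 49.9 FPKM in *C. sinensis* control roots. It was thus lower under Al in both species, and the assignment to root tip patterning rests on the name alone. Of the 3, 1 fell in *C. grandis*, where 7.25% of all genes fell, and none in *C. sinensis*, where 4.06% fell. The sum of 3 Casparian strip genes of the endodermis overlapped in *C. grandis*, between 42.4 and 46.4 FPKM in +Al and between 43.5 and 46.9 FPKM in control roots. It did not overlap in *C. sinensis*, between 73.2 and 73.9 FPKM in +Al and between 48.6 and 49.9 FPKM in control roots. There 1 of 3 rose, where 4.46% of all genes rose. The part of these markers in the results was not tested either.

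Some of the enzymes that make and use UDP-glucuronate fell in *C. grandis*. Their list is labelled glucuronic acid supply below, although it also holds enzymes that use UDP-glucuronate. Of 10 tested in *C. grandis* 4 fell and none rose, where 7.25% of all genes fell, with a median log2 fold change of -0.93. Of 11 tested in *C. sinensis* 1 fell and none rose, where 4.06% of all genes fell, with a median of 0.25. By limma 6 of these 11 had an adjusted p of at most 0.05, and all but the 1 called were higher under Al by less than the fold limit. The response was lower in *C. grandis* for 6 of 11 and higher for none, where 11.3% of all genes were lower and 6.27% higher. Without *C. grandis* control replicate 1 or 2 only 1 call was left in *C. grandis*, Cs4g02450, and without *C. sinensis* +Al replicate 1 or 2 the count with a different response was 3.

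Cs4g02450, UDP-D-glucuronate 4-epimerase 1, which turns UDP-glucuronate into the precursor of pectin, had 90.4 and 136 FPKM in *C. grandis* +Al replicates 1 and 2, against 419 and 442 FPKM in control replicates 1 and 2. The *C. sinensis* values were 396 and 389 FPKM in +Al replicates 1 and 2, against 421 and 419.5 FPKM in control replicates 1 and 2. The log2 fold changes were -1.96 (standard error 0.22, limma, adjusted p = 3.5e-09) in *C. grandis* and -0.10 (limma, adjusted p = 0.13) in *C. sinensis*, and their difference of -1.86 had an adjusted p of 0.0027 from limma. UDP-D-glucuronate 4-epimerase 6, orange1.1t01884, fell in *C. grandis*, at -1.02 on the log2 scale (limma, adjusted p = 0.0043). In *C. sinensis* it had 0.93 (limma, adjusted p = 0.0005), which passed by p but not by size. UDP-glucose 6-dehydrogenase, which makes UDP-glucuronate, was represented by Cs7g03050 and Cs6g22050. Cs7g03050 fell in *C. grandis*, at -1.47 on the log2 scale (limma, adjusted p = 0.0003), whereas Cs6g22050, the more abundant, had -0.998 and so stayed just inside the fold limit. In *C. sinensis* Cs7g03050 and Cs6g22050 had log2 fold changes of 0.43 and 0.61 (limma, adjusted p = 0.0087 and 0.0017), which passed by p but not by size.

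Inositol oxygenase opens the other route to glucuronic acid. Cs1g16030, inositol oxygenase 1, had 19.3 and 21.6 FPKM in *C. grandis* +Al replicates 1 and 2, against 55.5 and 49.6 FPKM in control replicates 1 and 2, and fell by 1.36 on the log2 scale (limma, adjusted p = 0.00021). In *C. sinensis* its log2 fold change was -0.30 (limma, adjusted p = 0.083). Cs4g13120, myo-inositol oxygenase 2, was the only member to fall in *C. sinensis*, at -1.01 on the log2 scale (limma, adjusted p = 0.0034), a call that was lost without +Al replicate 2 or control replicate 2. In *C. grandis* it had -0.42.

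Glucuronosyltransferases add glucuronic acid to other molecules. Their list held 5 genes, described as a xylan glucuronosyltransferase or as plant glycogenin-like proteins. None is described as acting on arabinogalactan proteins, and their substrates were not examined. Limma called none of the 5 in either species, where 12.5% of all genes were called in *C. grandis* and 8.53% in *C. sinensis*. So few genes would give less than 1 call at those shares. An unadjusted p under 0.05 was found for 1 in *C. grandis* and 2 in *C. sinensis*. Their median log2 fold change was -0.12 in *C. grandis*, against 0.19 in *C. sinensis*, with single genes between -0.65 and 0.80 in *C. grandis* and between 0.04 and 0.36 in *C. sinensis*. Only Cs1g05500, a plant glycogenin-like protein of the family that decorates xylan, had a response that differed between the species, where 17.6% of all genes did, by -1.002 (limma, adjusted p = 0.036), with 1.91 and 2.04 FPKM in *C. grandis* +Al and 3.01 and 3.28 FPKM in *C. grandis* control replicates, and with 12.5 and 13.7 FPKM in *C. sinensis* +Al and 9.71 and 10.7 FPKM in *C. sinensis* control replicates. This call was lost without any 1 of the *C. sinensis* libraries or either *C. grandis* control replicate.

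Cs7g05750 shares its annotated pathway, glycosaminoglycan degradation, with 7 genes beside the other glucuronidases. Of 6 tested in *C. grandis* 3 fell, where 7.25% of all genes fell, and of 6 tested in *C. sinensis* 2 fell and 1 rose, where 4.06% of all genes fell and 4.46% rose. The response differed for 1 of 6, which is near the 17.6% of all genes, and for 2 and 3 without *C. grandis* +Al replicates 1 and 2. The median log2 fold change was -0.87 in *C. grandis*, against -0.09 in *C. sinensis*. Cs7g01060, a beta-hexosaminidase-like enzyme that removes terminal amino sugars, had 3.66 and 6.60 FPKM in *C. grandis* +Al replicates 1 and 2, against 29.9 and 34.0 FPKM in control replicates 1 and 2. *C. sinensis* had 4.33 and 5.17 FPKM in +Al replicates 1 and 2, against 13.0 and 14.0 FPKM in control replicates 1 and 2. It fell by 2.67 on the log2 scale in *C. grandis* (limma, adjusted p = 2.2e-08) and by 1.49 in *C. sinensis* (limma, adjusted p = 0.00099).

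Orange1.1t00880, described as similar to heparan-alpha-glucosaminide N-acetyltransferase, a lysosomal enzyme of heparan sulfate breakdown in animals, fell in both species as well. A beta-hexosaminidase-like gene, orange1.1t02147, was called in *C. grandis* at -1.17, a call lost without +Al replicate 1 or either control replicate. On the log2 scale orange1.1t00880 had -1.95 in *C. grandis* (limma, adjusted p = 8.5e-06) and -1.75 in *C. sinensis* (limma, adjusted p = 0.00058). Cs2g12170, beta-hexosaminidase 3, had 52.4 and 48.4 FPKM in *C. sinensis* +Al replicates 1 and 2, against 26.4 and 22.3 FPKM in control replicates 1 and 2. It rose there by 1.05 on the log2 scale (limma, adjusted p = 0.0013), had -0.58 in *C. grandis*, and its response differed between the species by -1.63 (limma, adjusted p = 0.0021). With 1 *C. sinensis* library left out its log2 fold change there ranged between 0.93 and 1.17, and the call was lost without +Al replicate 1 or control replicate 2.

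Other hydrolases that trim side chains of wall glycans were mostly not called. Of those tested in *C. grandis* 20% were called, against 12.5% of all genes. In *C. sinensis* 17 of 26 had an adjusted p of at most 0.05 by limma, all but the 1 called with a change below the fold limit. Of 25 tested in *C. grandis* 1 rose and 4 fell, where 5.2% of all genes rose and 7.25% fell, with 3 calls left without +Al replicate 2 or control replicate 2 and 2 without control replicate 1. Of 26 tested in *C. sinensis* 1 fell, near the 4.06% of all genes, and without +Al replicate 1 the count was 2. The response differed for 11 of 26, lower in *C. grandis* for 10 and higher for 1, where 17.6% of all genes differed, 11.3% lower and 6.27% higher. This count was 4 without any 1 of the 4 *C. sinensis* libraries and 6 without *C. grandis* control replicate 1. Beta-galactosidase 8, Cs2g06700, fell in both species at low levels, with log2 fold changes of -2.48 in *C. grandis* and -1.96 in *C. sinensis*. It had 0.89 and 0.96 FPKM in *C. grandis* +Al, against 5.22 and 6.04 FPKM in control replicates 1 and 2. *C. sinensis* had 0.57 and 0.77 FPKM in +Al, against 2.72 and 3.04 FPKM in control replicates 1 and 2. Both calls were lost with no filter on low values. With 1 library left out the changes ranged between -2.58 and -2.38 in *C. grandis* and between -2.15 and -1.77 in *C. sinensis*. An alpha-galactosidase-like gene, Cs5g17230, had 7.40 and 7.16 FPKM in *C. grandis* +Al replicates 1 and 2, against 32.9 and 31.4 FPKM in control replicates 1 and 2, a log2 difference of -2.13 (limma, adjusted p = 5.5e-07). Beta-galactosidase Cs3g25410 fell in *C. grandis*, at -1.41 on the log2 scale, and had 0.57 in *C. sinensis*, but the *C. grandis* call was lost without control replicate 1 or 2. Beta-xylosidase 2, orange1.1t01658, was called in *C. grandis* at -1.27, a call lost with each of the 4 *C. grandis* libraries left out in turn. Arabinofuranosidase Cs9g02570, which removes arabinose, was the only one to rise in *C. grandis*. Its +Al values were 9.12 and 25.5 FPKM, against 6.51 and 7.35 FPKM in control roots, and without +Al replicate 2 its log2 fold change was 0.39 in place of 1.13.

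**Figure D5:**
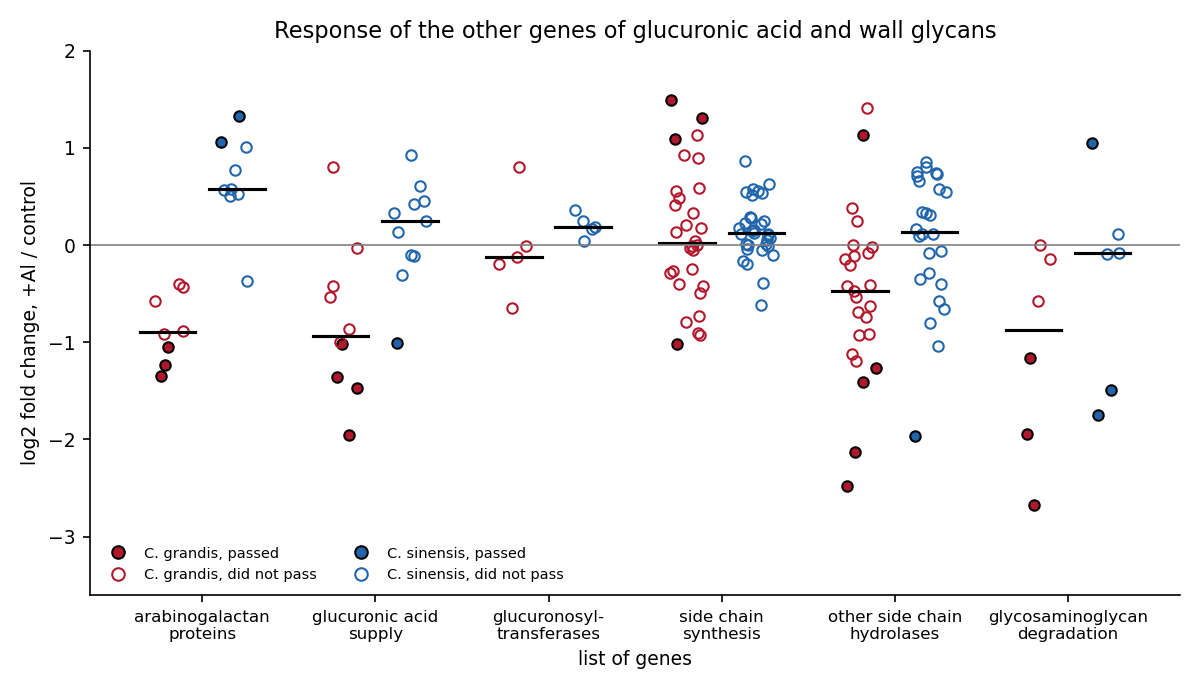
Log2 fold change, +Al over control, of each tested gene in 6 lists, in *C. grandis* (red, left) and *C. sinensis* (blue, right), filled where the gene was called, with a line at the median. The arabinogalactan proteins and the enzymes that make or use UDP-glucuronate (labelled glucuronic acid supply) lie mostly below zero in *C. grandis*, with medians of -0.90 and -0.93. In *C. sinensis* they lie mostly above zero, with medians of 0.58 and 0.25.

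Galactosyltransferases and fucosyltransferases, the kinds of enzyme that build such side chains, were called about as often as genes in general in *C. grandis* and not at all in *C. sinensis*. The keywords also took in enzymes of other substrates, such as Cs4g07840, described as a galactinol-sucrose galactosyltransferase, and found no arabinosyltransferase. Of 30 tested in *C. grandis* 3 rose and 1 fell, or 13.3% against 12.5% of all genes. Of 32 tested in *C. sinensis* none was called by limma, against 8.53% of all genes. There 5 had an adjusted p of at most 0.05 with a smaller change and 7 an unadjusted p under 0.05. All 4 called genes are described as fucosyltransferases, a kind that in *Arabidopsis* also acts on xyloglucan and on proteins. Orange1.1t04270, fucosyltransferase 1, had 35.4 and 49.3 FPKM in *C. grandis* +Al replicates 1 and 2, against 17.1 and 12.8 FPKM in control replicates 1 and 2, a log2 difference of 1.495 (limma, adjusted p = 0.00014). Its near neighbour in the numbering, orange1.1t04275, rose in *C. grandis* by 1.31 and had -0.19 in *C. sinensis*, and genes of this kind may share reads. Cs8g01690 rose by 1.10 and Cs7g01390 fell by 1.02 on the log2 scale, both O-fucosyltransferases. With 1 library left out the 4 calls became 2 and 3 without +Al replicates 1 and 2, and 1 and 0 without control replicates 1 and 2. The call for Cs8g01690 was lost with each of the 4 left out in turn. The response differed between the species for 5 of 32, or 15.6% against 17.6% of all genes, lower in *C. grandis* for 4, Cs4g07840 among them, and higher for 1. That count was 1 without any 1 of the *C. sinensis* libraries, 2 and 3 without *C. grandis* control replicates 1 and 2, and 9 and 10 without *C. grandis* +Al replicates 1 and 2.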

How the data were processed

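Root tips of *C. grandis* and *C. sinensis* seedlings, +Al or control, were sequenced in 8 libraries, 2 per group, each from 5 pooled seedlings. Per the labels and the methods of the study, the authors removed ribosomal RNA reads with Bowtie, mapped the rest to the *C. sinensis* genome with TopHat2, assembled transcripts with Cufflinks and deposited FPKM per gene. The sources used here do not give the build. The submitters' processing notes also name edgeR 3.0.0 and R 2.1.5, but the deposited FPKM are no counts, so a count test was not used, the reads behind a single value are unknown and replicates limit the precision. Descriptions cover 43% of genes.

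Genes averaging 1 FPKM or more in a group were tested on log2(FPKM + 0.1) with limma 3.58.1 in R 4.3.3 (trend, two-sided, Benjamini-Hochberg adjustment over all genes tested), within each species on its 4 libraries and for the difference of responses on all 8. Calls needed an adjusted p of at most 0.05 and, within a species, a change of 1 or more on the log2 scale in either direction. The method was tested on simulated data. P-values rest on the spread between pools, which limma draws toward a spread shared by genes of like level. The weight of the shared spread, as prior degrees of freedom, was 36.2 in *C. grandis* and 3.50 in *C. sinensis*. Small p-values in *C. grandis* therefore rest mostly on the spread over many genes and little on the gene's own pools. With median ratio rescaling the weight in *C. grandis* was 3.17.

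Lists were made by keywords in the deposited description or pathway, and some genes belong to more than 1. Named were all genes described as glucuronidase or heparanase, 5 IDs on each side of Cs7g05750, the 8 nearest profiles, and from each list up to 4 called genes per species with the highest mean FPKM. Cs1g05500 was named after its values were seen, and so were Cs4g07840, Cs6g22050 and the genes ranked beside Cs7g05750. The members and lists were chosen with earlier results of these data known. The alternatives were pseudocounts of 1 and 0.01, no filter or one of 5 FPKM, median ratio rescaling, a replicate block, 1 spread shared by all 8 libraries, and each library left out.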

Additional observations from a re-analysis of the deposited data

Results flagged for a closer look

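The genes named from the lists had been called in at least 1 species, which by itself favours a difference between the species, so their number is not set against that over all genes. Of these 22 genes, 14 had a response to Al that differed by limma's test of the difference itself, at an adjusted p of at most 0.05. It was lower in *C. grandis* for 13. Most of the 22 had been called for a fall in *C. grandis*, so the choice by itself also favours this direction. Among the arabinogalactan proteins the difference in log2 fold change, *C. grandis* minus *C. sinensis*, was -2.38 for Cs2g05930, -1.74 for orange1.1t00255, -1.49 for Cs2g16140 and -0.97 for Cs8g18440.

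Among the enzymes that make or use glucuronic acid or UDP-glucuronate the same difference was -1.95 for orange1.1t01884, -1.89 for Cs7g03050, -1.86 for Cs4g02450 and -1.06 for Cs1g16030. Among hydrolases it was -1.98 for Cs3g25410, -1.63 for Cs2g12170, -1.33 for Cs5g17230 and -0.92 for orange1.1t01658. Of the fucosyltransferases Cs7g01390 had -1.17, and orange1.1t04275, the single gene with a higher response in *C. grandis*, had 1.504. With each of the 8 libraries left out in turn, 8 of the 14 calls held and 6 were lost in at least 1 case, those of Cs1g16030, Cs7g01390, Cs7g03050, Cs8g18440, orange1.1t01658 and orange1.1t04275.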

How the results depend on the processing

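The direction of the Cs7g05750 response was the same under every alternative run. For the size of its log2 fold change most of these runs are no test. The filters, the replicate block and the shared spread leave the value as it is. Leaving out 1 library cannot move it beyond the spread of replicates, which is computed from the same libraries. Only the pseudocounts and the rescaling could do so. Of these the pseudocount of 1 did, giving 5.82 in *C. grandis* and 4.54 in *C. sinensis*. With no filter on low values the genes called in *C. grandis* numbered 111, against 2326 in the fit reported above. The calls there without the filter were 0 for arabinogalactan proteins and 0 for the list labelled glucuronic acid supply. They were 0 for side chain synthesis, 0 for the glycosaminoglycan pathway and 2 for other hydrolases. In *C. sinensis* they were 0 for supply and 0 for other hydrolases, and other hydrolases also 0 at 5 FPKM or more. With a pseudocount of 1, supply had 0 calls in *C. sinensis*, side chain synthesis 2 in *C. grandis*, and the glycosaminoglycan pathway 2 differences. Rescaling gave 6037 genes with a different response, against 3542 in the fit reported above, with 11 of the 6037 in side chain synthesis and 3 in the glycosaminoglycan pathway.

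Replicate numbers did not pair the libraries (correlation of deviations 0.04 in *C. grandis* and -0.0075 in *C. sinensis*, across genes). With a replicate block 1867 genes had a different response, with 0 among glucuronosyltransferases, 1 in side chain synthesis and 5 among other hydrolases, and in *C. grandis* side chain synthesis had 2 calls and other hydrolases 3.

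With 1 library left out, genes called ranged from 1322 to 1803 in *C. grandis*, and genes with a different response from 1161 to 7166. The Cs4g05160 difference ranged from -0.478 to 0.0418, the positive value without *C. grandis* +Al replicate 1. Calls in *C. grandis* ranged from 0 to 3 for arabinogalactan proteins, 1 to 5 for supply, 0 to 3 for side chain synthesis and 2 to 4 for other hydrolases. In *C. sinensis* they ranged from 1 to 2 for arabinogalactan proteins, 0 to 1 for supply and 1 to 2 for other hydrolases. Differences ranged from 3 to 7 for supply, 0 to 2 for glucuronosyltransferases, 1 to 10 for side chain synthesis, 4 to 14 for other hydrolases and 1 to 3 for the glycosaminoglycan pathway. The difference for Cs9g02570 was -0.41 without *C. grandis* +Al replicate 2 and 1.06 without +Al replicate 1, and orange1.1t02147 had 0.14 in *C. sinensis* without +Al replicate 1 and -0.31 without +Al replicate 2. The cause of these changes was not tested.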
